A study of Mus musculus with 4 samples.

Results

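The transcripts of 10 Notch pathway genes were followed in mouse primary myotubes exposed to ectodysplasin A2 (EDA-A2), the ligand of the receptor EDA2R. They were the receptors Notch1, Notch2 and Notch3, the ligands Jag1, Jag2 and Dll1, the DNA-binding effector Rbpj, and the targets Hes1, Hey1 and Heyl. The genes were taken by name from the count tables, and all 10 were found among the 53647 genes listed there. All 10 passed the filter on low counts, as did 15173 genes in total.

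The cells were wild-type myoblasts from limb muscles of pups aged 2 to 3 days, differentiated into myotubes in medium with horse serum. One group was the untreated control and the other received recombinant EDA-A2 at 250 ng/mL for 24 h, and both were harvested 72 h after differentiation began. Each condition had 2 libraries of polyadenylated RNA from stranded bulk sequencing, and the labels do not say whether the 2 came from separate cultures or animals. The p-values therefore measure the spread between these libraries, which may be technical. In bulk RNA, fewer cells of a type and less RNA per cell cannot be told apart.

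Notch receptors sit at the cell surface and are activated by Delta and Jagged ligands on a neighbouring cell. Cleavage by an ADAM protease and then by γ-secretase frees the intracellular domain, which enters the nucleus, joins RBPJ and turns on Hes and Hey repressor genes. In muscle the pathway is known for keeping satellite cells and myoblasts undifferentiated, and its activity falls as myotubes form.

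Counts on genes totalled 29444155 to 29746863 per library, and a count of 0 allows up to 3 counts, or 0.101 to 0.102 CPM (counts scaled to the library total), by counting error alone. Genes known to respond to NFκB were high after EDA-A2: Nfkbie, Nfkb2, Relb and Nfkbia all rose, by 0.99 to 3.15 on the log2 scale. Eda2r itself rose from 7354 ± 468 to 9342 ± 861 normalized counts (SD, n = 2; adjusted p = 0.0178 by edgeR), and the related receptor gene Edar had 0 counts in every library. Every edgeR call rests on all 4 libraries, since a refit with 1 left out has a lone library in a condition. Such refits cannot test a call and are given as fold changes only. With any 1 library left out, the log2 fold change was 0.25 to 0.44 for Eda2r and 3.03 to 3.28 for Nfkbie.

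Of the 10 Notch genes, Rbpj rose and Jag2 fell after EDA-A2, and the other 8 did not pass the test. The rise of Rbpj was 31.2% and the drop of Jag2 was -16.4%, both on the scale of normalized counts, which are counts scaled to the mean library size after TMM normalization. Over all genes, edgeR's quasi-likelihood test called 4.57% at an adjusted p-value (Benjamini-Hochberg) under 0.05, 2.45% (371) as higher and 2.13% (323) as lower. Scaled to total counts instead, 485 genes were called higher and 194 lower. At an unadjusted p-value under 0.05 there were 3 of the 10 Notch genes and 15.6% of all genes. Among the 10 genes 5 had a higher and 5 a lower mean after EDA-A2, and the median log2 fold change was 0.01, beside -0.00 over all genes tested. The conditions did not overlap for 4 of the 10 genes, while the same held for 45.0% of all genes tested.

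**Figure D1:**
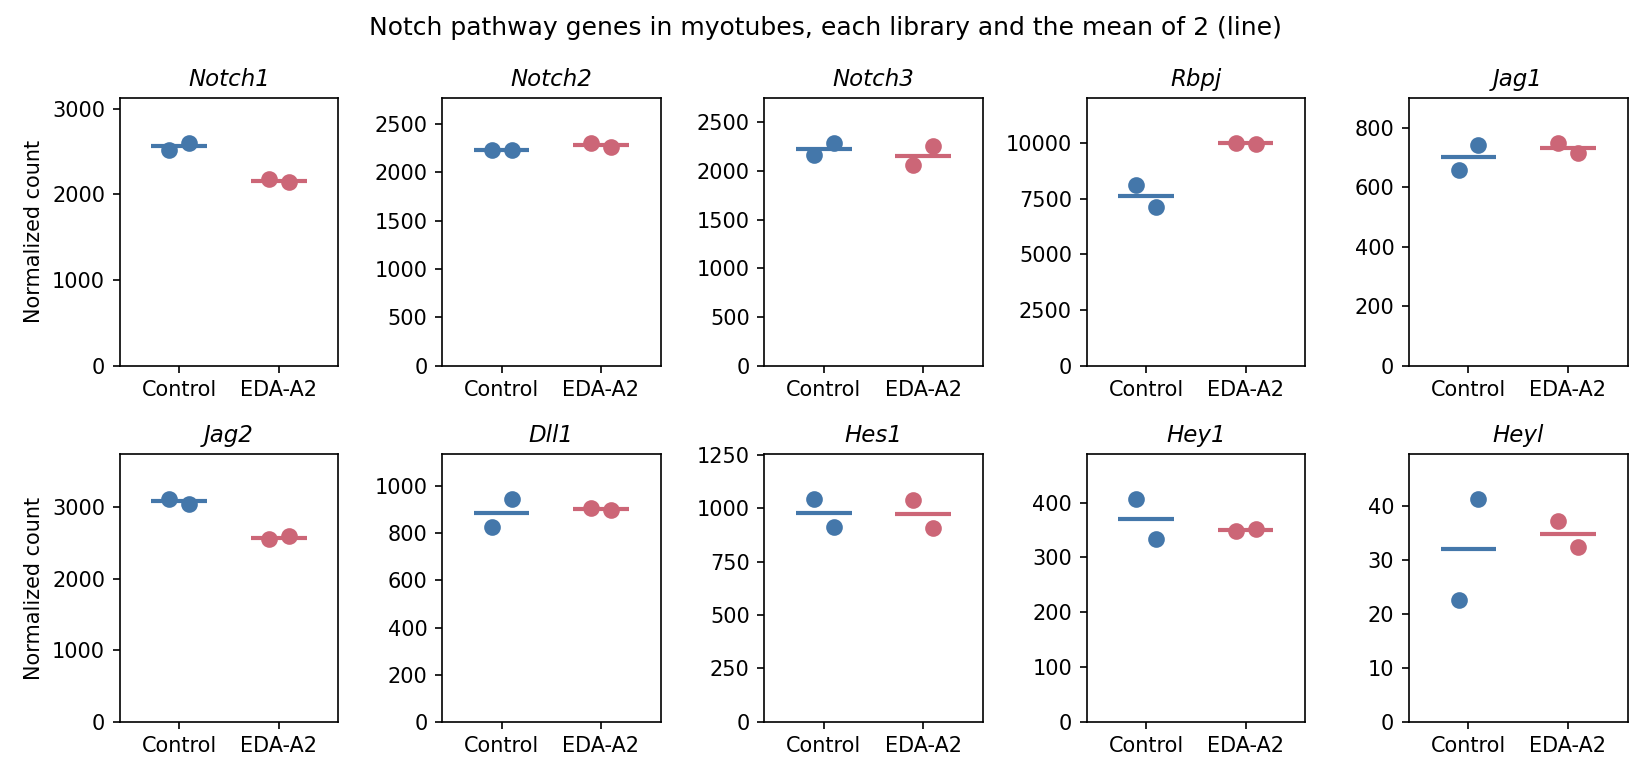
Normalized count (vertical axis, starting at 0 and scaled separately for each gene) of the 10 Notch genes in the 2 control and 2 EDA-A2 libraries, each point 1 library and each line the mean of 2. Both EDA-A2 libraries lie above both controls for Rbpj and Notch2 and below them for Jag2 and Notch1, and the points of the other 6 genes overlap.

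Rbpj (ENSMUSG00000039191, chromosome 5 from 53623494 to 53814704 of GRCm39, plus strand) encodes the protein that carries the Notch signal to DNA and that represses the same genes when Notch is silent. It had 8086 and 7123 normalized counts in control, against 10008 and 9940 with EDA-A2. Both treated libraries were above both controls, and the controls lay farther apart than the treated pair. The mean went from 7605 ± 681 to 9974 ± 48.1 (SD, n = 2), which is 0.39 on the log2 scale (standard error, SE, 0.07; adjusted p = 0.00517 by edgeR). Its 95% interval, not adjusted for the number of genes, ran from 0.23 to 0.55. DESeq2's adjusted p was 0.000251, and without a filter on low counts edgeR's was 0.141. Without control replicate 1 or 2 the log2 fold change was 0.49 or 0.30.

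Processed pseudogenes of Rbpj exist in the mouse genome, and reads that match a copy equally well are not counted to either. Rbpj-ps3 (named after its values were seen) had 24 and 12 counts in control, against 27 and 38 with EDA-A2, and Rbpj-ps1 had 0 in all 4. No exon of Rbpj overlaps an exon of another gene in the annotation.

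The promoter of Rbpj is shown because it was the one member promoter that held the RBPJ binding core. RefSeq (build GRCm38.p6) gave promoters for 7 of the 10 genes and none for Hes1, Hey1 and Heyl. The 250 bases before each start were searched on both strands for the RBPJ core TGGGAA and for the NFκB kB consensus. These motifs can overlap, since both may hold the letters GGGAA. The window below precedes the first of 2 starts listed for Rbpj (chr5:53590096-53590345, plus strand). This position is on GRCm38.p6 and cannot be set directly against the GRCm39 position of the gene given above. Where the listed starts lie among the annotated starts of Rbpj was not examined. Capitals mark the core, which lies at bases 149 to 144 before the start on the plus strand and at 65 to 60 on the minus strand.
Rbpj promoter: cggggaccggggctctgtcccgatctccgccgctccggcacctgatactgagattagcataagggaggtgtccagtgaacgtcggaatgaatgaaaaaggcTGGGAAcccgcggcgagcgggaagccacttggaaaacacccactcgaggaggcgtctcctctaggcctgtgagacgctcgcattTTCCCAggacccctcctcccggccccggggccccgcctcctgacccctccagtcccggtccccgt
The core was present in 21.59% and the kB consensus in 7.25% of the 32851 promoter windows of this length in the table. The window of the other Rbpj start holds the second of these cores. No kB match was found in either window of Rbpj. A match is a stretch of letters and no measurement of binding.

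Jag2 (ENSMUSG00000002799, chromosome 12 from 112871421 to 112893437, minus strand) encodes a Jagged ligand and was per length the most abundant of the 3 ligand transcripts in every library. It had 3119 and 3047 normalized counts in control, against 2552 and 2602 with EDA-A2. The treated pair lay below the control pair, with a wider gap between conditions than within either. The mean went from 3083 ± 50.5 to 2577 ± 35.3 (SD, n = 2), and the log2 fold change was -0.26, with an SE of 0.07 (adjusted p = 0.0411 by edgeR), with a 95% interval from -0.40 to -0.11. This call stood close to the threshold: the adjusted p was 0.0540 with DESeq2, 0.116 when libraries were scaled to total counts, and 0.198 without a filter. The log2 fold change stayed between -0.27 and -0.20 over these alternatives and with any 1 library left out.

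The promoter of Jag2 is given beside that of Rbpj as the gene that moved the other way. Neither motif was found in its window (chr12:112929496-112929745 of GRCm38.p6, minus strand, printed 5′ to 3′ along the gene, with no capitals because nothing matched).
Jag2 promoter: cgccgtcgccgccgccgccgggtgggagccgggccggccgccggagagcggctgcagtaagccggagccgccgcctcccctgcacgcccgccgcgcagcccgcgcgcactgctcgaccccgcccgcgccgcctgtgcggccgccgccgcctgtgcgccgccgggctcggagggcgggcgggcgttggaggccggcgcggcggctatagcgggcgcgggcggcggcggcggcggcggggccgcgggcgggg
Among the other members with a promoter, a kB match at 1 position each was found for Notch2 (bases 112 to 103 before the start) and for the first of the Dll1 windows (81 to 72). None was found for Notch1, Notch3 or Jag1.

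The other ligands did not pass the test. Jag1 (chromosome 2 from 136923373 to 136958693), the other Jagged ligand measured, had 659 and 742 normalized counts in control, against 751 and 715 after EDA-A2. The pairs overlapped, and the log2 fold change was 0.06 with a 95% interval from -0.14 to 0.27 (adjusted p = 0.835 by edgeR). Dll1 (chromosome 17 from 15587276 to 15597134), a Delta ligand of myogenic cells, had 828 and 946 normalized counts in control and 908 and 899 after EDA-A2. Its treated libraries lay between the 2 controls, with a log2 fold change of 0.03 (95% interval -0.17 to 0.22, adjusted p = 0.939 by edgeR). Of the exon bases of Dll1, 27.6% are shared with Fam120b on the opposite strand, and the strand option of the counting is not given in the sources used here. Without control replicate 1 the log2 fold changes of Jag1 and Dll1 were -0.02 and -0.06.

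Among the receptors, none passed the test, and Notch1 was nearest to it. Notch1 (ENSMUSG00000026923, chromosome 2 from 26347915 to 26406675) had 2522 and 2604 normalized counts in control and 2176 and 2144 after EDA-A2. Both treated libraries were below both controls, and the log2 fold change was -0.25 (SE 0.07, 95% interval -0.39 to -0.10). With adjustment over all genes the p-value was 0.0570 by edgeR and 0.0972 by DESeq2, so Notch1 was not called. Of its exon bases, 14.0% are shared with the noncoding gene 0610009E02Rik on the opposite strand.

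Notch2 (chromosome 3 from 97920800 to 98057677) and Notch3 (chromosome 17 from 32339794 to 32385893) were close to their control levels. Notch2 had 2225 and 2231 normalized counts in control and 2305 and 2261 after EDA-A2, a log2 fold change of 0.04 with a 95% interval from -0.11 to 0.18 (adjusted p = 0.882 by edgeR). Its EDA-A2 libraries were both above the controls, by a margin smaller than the standard error of the test (0.07 on the log2 scale). Notch3, a receptor best known from vascular mural cells and also expressed in satellite cells, had 2166 and 2289 in control and 2054 and 2251 after EDA-A2. Here the pairs overlapped, with a log2 fold change of -0.05 (95% interval -0.21 to 0.11, adjusted p = 0.841 by edgeR) that was 0.00 with total counts as the scale and 0.02 without EDA-A2 replicate 1. For receptors, edgeR thus called 0 of 3 genes, with 1 at an unadjusted p-value under 0.05, and DESeq2 called 0.

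The targets, whose transcripts are commonly read as a sign of Notch activity, did not differ detectably. Hes1 (ENSMUSG00000022528, chromosome 16 from 29882134 to 29886643), a repressor of the basic helix-loop-helix family, had 1044 and 911 normalized counts in control and 1040 and 908 after EDA-A2. Replicate 1 was the higher and replicate 2 the lower library in both conditions, at nearly the same levels. The spread within a condition, which thus followed the replicate number, was far wider than the difference of means. The log2 fold change was -0.00, with an SE of 0.10 (adjusted p = 0.990 by edgeR), and its 95% interval of -0.21 to 0.20 corresponds to a change between -13.5% and 14.9%.

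Hey1 (chromosome 3 from 8726956 to 8732385), a repressor of the related Hey family, had 407 and 334 normalized counts in control and 348 and 353 after EDA-A2. The treated libraries lay between the controls, and the log2 fold change was -0.08 with a 95% interval from -0.34 to 0.18 (adjusted p = 0.848 by edgeR). Heyl (chromosome 4 from 123127349 to 123143682), another gene of that family, was near the limit of a useful measurement. It had 22 and 41 counts in control and 38 and 33 after EDA-A2, and its log2 fold change was 0.12 with a 95% interval from -0.60 to 0.84 (adjusted p = 0.925 by edgeR). With so few counts, and controls that lay far apart, a change of Heyl within those bounds cannot be told from none. None of the 3 targets reached an unadjusted p-value under 0.05 with edgeR, and DESeq2 called 0. The sign of each flipped when 1 library was left out: without control replicate 1 the log2 fold changes were 0.10 for Hes1, 0.07 for Hey1 and -0.24 for Heyl. Hes1 was also at 0.09 without EDA-A2 replicate 2 and at 0.05 under scaling to total counts.

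**Figure D2:**
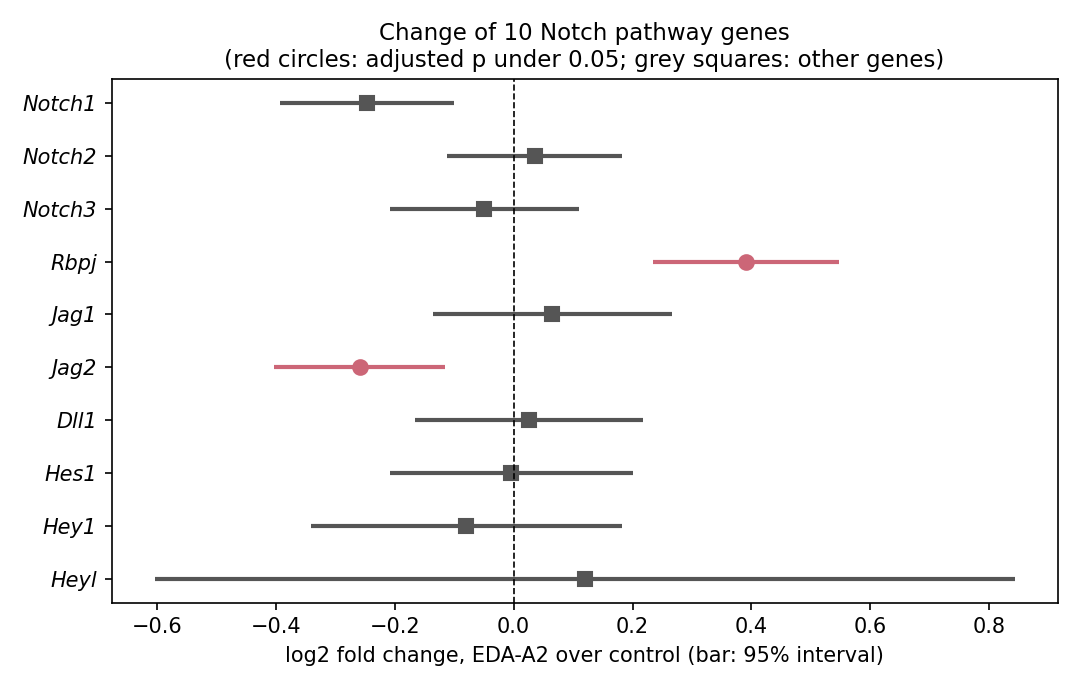
Log2 fold change of EDA-A2 over control (horizontal axis) for the 10 Notch genes, with bars for the 95% interval from edgeR's quasi-likelihood fit, not adjusted for the number of genes. Red circles mark Rbpj (0.39) and Jag2 (-0.26), the genes with an adjusted p under 0.05. The intervals of the 3 targets all include 0 and that of Heyl is the widest.

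Levels can be compared between genes only per length, and here CPM were divided by the kilobases of annotated exon. On that scale Rbpj was highest, with 18.7 to 26.3 CPM per kilobase over the 4 libraries, followed by Jag2 (12.2 to 14.9), Hes1 (9.09 to 10.4) and Notch3 (7.70 to 8.58). Notch2 (6.67 to 6.91), Dll1 (5.64 to 6.44), Notch1 (5.09 to 6.18), Jag1 (3.74 to 4.26) and Hey1 (2.35 to 2.87) came next. Heyl was lowest at 0.145 to 0.264. In this order Dll1 and Notch1 were the one pair of neighbours whose ranges overlapped. Annotated exon includes bases that these cells may not use, which lowers the value of a gene with many isoforms such as Rbpj.

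**Figure D3:**
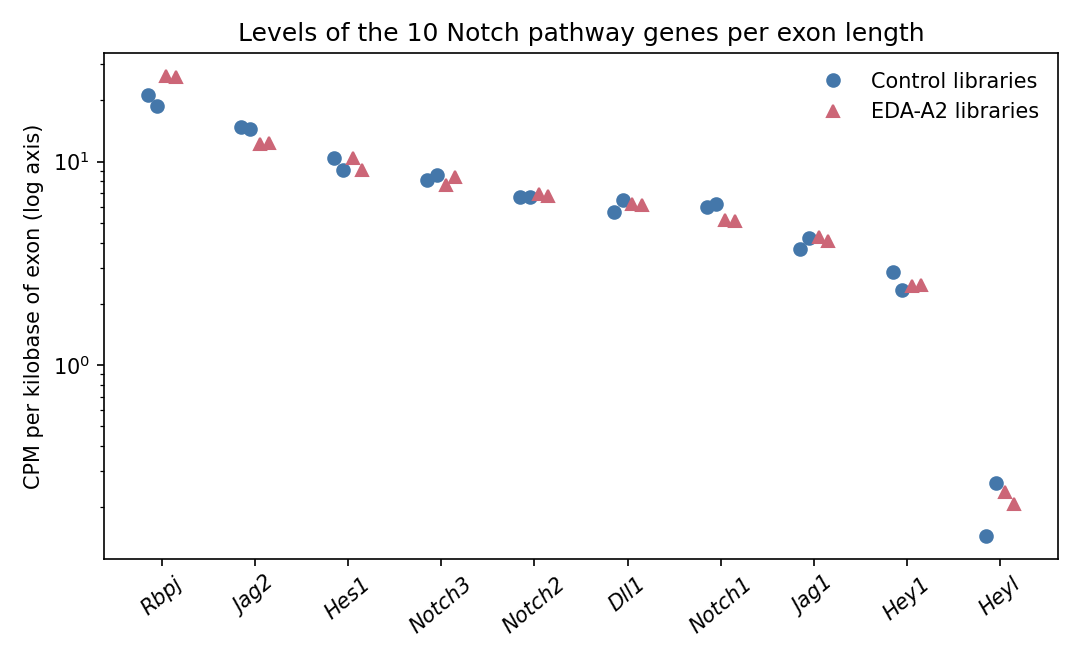
Level of each of the 10 Notch genes in CPM per kilobase of exon (vertical log axis), with circles for control and triangles for EDA-A2 libraries, in the order of the mean over 4 libraries. The genes run from Rbpj, at 18.7 to 26.3, down to Heyl, at 0.145 to 0.264.

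Shares within a family do not depend on the scaling between libraries. They add up to the whole, so a drop of any gene by itself raises the shares of the others. The levels of Jag1, Dll1 and Notch2 themselves did not pass the test, as given above. Of the summed length-scaled level of the 3 ligands, Jag2 took 61.3% and 57.7% in control, against 53.8% and 54.9% with EDA-A2. The share of Jag1 was 15.4% and 16.7% in control and 18.8% and 18.0% after EDA-A2. Dll1 held 23.3% and 25.6% in control and 27.4% and 27.1% after treatment. Jag2 therefore had the majority of the ligand transcripts in all 4 libraries, and its share was lower in both treated ones.

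Of the 3 receptors, Notch1 took 28.8% in both control libraries and 26.1% and 25.1% after EDA-A2. Notch2 took 32.1% and 31.2% in control and 34.9% and 33.4% after EDA-A2. The share of Notch3 overlapped between conditions, at 39.1% and 40.01% against 38.9% and 41.5%. Hes1 made up 77.1% to 79.5% of the 3 targets in all libraries, with no separation of the conditions. With 2 libraries per condition an exact permutation test of a share cannot give a two-sided p below 0.333, so these shares are descriptions.

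The other genes of the pathway numbered 54, of which 46 were tested. Of these, 2 rose (Dtx3l and Dtx2) and 0 fell by edgeR, which is 4.35% against 4.57% of all genes tested. DESeq2 called 1 gene, Dtx3l, as higher and none as lower. At an unadjusted p-value under 0.05 there were 11 of the 46 genes, beside 15.6% of all genes tested, the share against which such counts in the single lists below stand. The median log2 fold change of the 46 was 0.02, beside -0.00 over all genes tested.

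Both genes that rose encode E3 ubiquitin ligases of the Deltex family, whose founding member acts on Notch in endocytosis. Dtx3l (ENSMUSG00000049502) works with the ADP-ribosyltransferase PARP9 and is known from interferon responses. It had 222 and 184 normalized counts in control and 438 and 454 after EDA-A2, with no overlap between conditions and a log2 fold change of 1.14, with an SE of 0.13 (adjusted p = 7.13e-05 by edgeR). With any 1 library left out the log2 fold change of Dtx3l was 1.01 to 1.28. Of its exon bases, 8% are shared with Parp9 on the opposite strand, which had 161 and 142 counts in control and 378 and 381 after EDA-A2. Dtx2 (ENSMUSG00000004947) had 340 and 333 normalized counts in control and 447 and 474 after EDA-A2. The log2 fold change of Dtx2 was 0.45 (SE 0.11, adjusted p = 0.0260 by edgeR), but its adjusted p was 0.0749 with DESeq2 and 0.166 without a filter. Its log2 fold change was 0.41 to 0.49 with any 1 library left out.

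The rest of the endocytosis and turnover list, 14 genes in all, included the ligases of the Neuralized and Mindbomb families that act on the ligands. Neurl1a, Mib1 and Itch, which had the highest normalized counts of the list without regard to length, had log2 fold changes of -0.05, 0.01 and 0.02. Of the 14 genes, 6 had an unadjusted p-value under 0.05 in edgeR, among them Dtx3l, Dtx2 and Neurl3. The others were Dtx4, Numbl and Fbxw7, named after their values were seen. Their log2 fold changes were 0.20, -0.19 and -0.20 (adjusted p = 0.295, 0.177 and 0.204 by edgeR). Neurl3, singled out after its value was seen, had 31 and 23 counts in control and 48 and 60 after EDA-A2, a log2 fold change of 0.94 (adjusted p = 0.0992 by edgeR).

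The enzymes that cut Notch had small fold changes. None of the 10 proteolysis genes was called by edgeR or DESeq2, and 0 had an unadjusted p-value under 0.05 with edgeR. The sheddases Adam10 and Adam17 had log2 fold changes of 0.06 (95% interval -0.08 to 0.21) and 0.11 (-0.03 to 0.25), and Furin, which processes the receptor before it reaches the surface, had -0.03 (-0.17 to 0.12). All 10 lay between -0.08 and 0.11 on the log2 scale, including the γ-secretase subunits.

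Genes for sugar modification of the receptor were 5, of which 4 were tested and 0 called by edgeR or DESeq2, with 2 at an unadjusted p-value under 0.05 in edgeR. All 4 had a higher mean after EDA-A2. Poglut1, an O-glucosyltransferase, went from 878 ± 82.5 to 1025 ± 4.34 normalized counts (SD, n = 2; log2 fold change 0.22, adjusted p = 0.214 by edgeR). The O-fucosyltransferase gene Pofut1 had a log2 fold change of 0.09 and Rfng, a fringe glycosyltransferase, 0.06.

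No nuclear partner of RBPJ passed the test. Of 12 listed genes 11 were tested, 0 were called by edgeR or DESeq2, and 0 had an unadjusted p-value under 0.05 in edgeR. The adaptor Snw1 and the acetyltransferase Ep300 had log2 fold changes of 0.09 and -0.07. Of the exon bases of Snw1, 46.1% are shared with Slirp on the opposite strand, and the strand option of the counting is not given. Over the 11 genes the values ran from -0.19 to 0.16. Rbpjl, the tissue-restricted relative of Rbpj, had 0 or 1 count in each library.

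Other genes listed as targets and other receptors or ligands were mostly scarce. Of 8 further genes grouped here as targets 4 were tested, 0 were called by edgeR or DESeq2, and 2 had an unadjusted p-value under 0.05 in edgeR. Whether each of these genes, Hes6 among them, responds to Notch in myotubes was not tested. Hes6, which opposes Hes1 and promotes myogenic differentiation, was abundant, with 6392 and 6260 normalized counts in control and 5535 and 5195 after EDA-A2. The conditions did not overlap for Hes6, and the log2 fold change was -0.24 (adjusted p = 0.0608 by edgeR). Nrarp, a feedback inhibitor induced by Notch, had 107 and 105 normalized counts in control and 142 and 137 after EDA-A2, a log2 fold change of 0.39 (adjusted p = 0.278 by edgeR). Of the exon bases of Nrarp, 79.4% are shared with the noncoding gene Gm38287 on the opposite strand, which had 0 counts in every library. The strand option of the counting is not given. Hey2 had a log2 fold change of -0.05. Hes5 and Dtx1 had 0 counts in every library.

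Of the 5 other receptor and ligand genes 3 were tested and 0 called by edgeR or DESeq2, with 1 at an unadjusted p-value under 0.05 in edgeR. Dlk1, a ligand-like protein without the usual binding domain, had 210 and 316 normalized counts in control and 326 and 367 after EDA-A2 (log2 fold change 0.40, adjusted p = 0.230 by edgeR). Notch4 and Dlk2 had at most 23 counts in any library, and their log2 fold changes were -0.11 and -0.57.

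**Figure D4:**
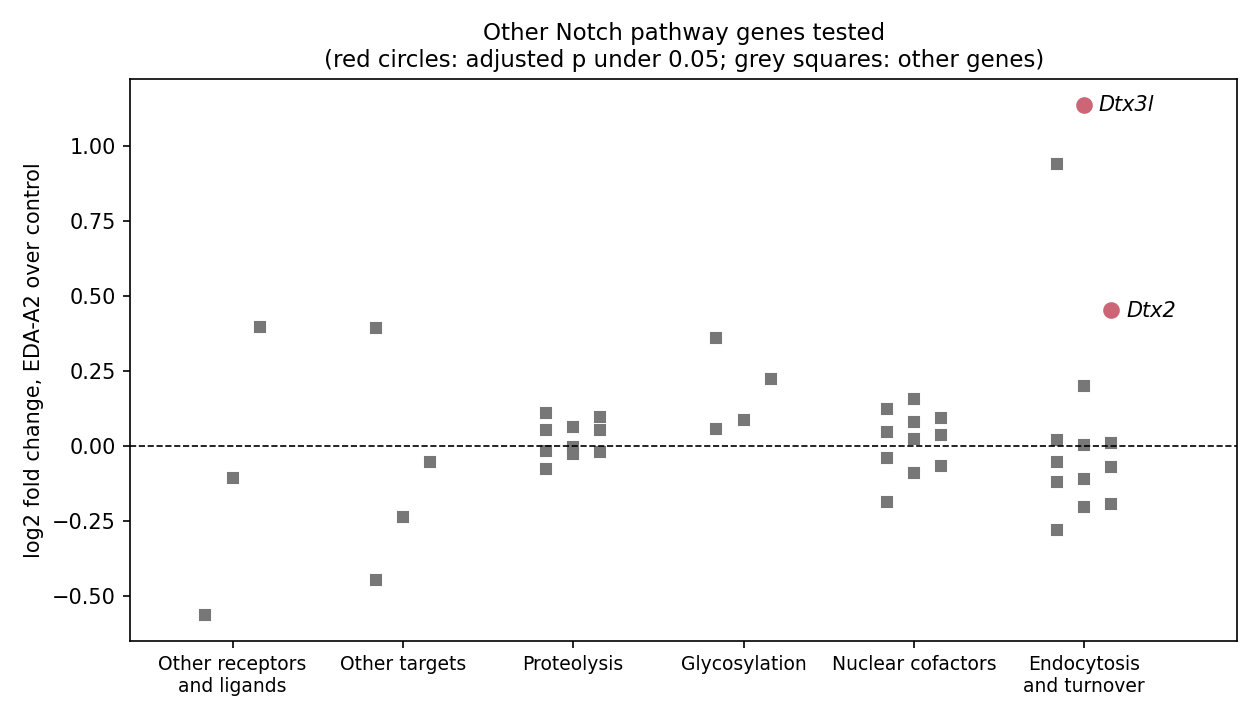
Log2 fold change of EDA-A2 over control (vertical axis) for the 46 other Notch pathway genes tested, grouped by role, 1 point per gene, spread sideways for legibility. Red circles mark Dtx3l (1.14) and Dtx2 (0.45), the genes with an adjusted p under 0.05, both in the endocytosis and turnover list. The proteolysis genes lie between -0.08 and 0.11.

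The cultures held markers of several cell states. Of 10 genes of differentiated myotubes, 4 fell (Myh3, Myh8, Acta1 and Actn2) and 1 rose (Mymx), beside 2.13% of all genes tested called lower and 2.45% called higher. The summed level of the 10 genes was 682588 to 712729 normalized counts in control and 514939 to 518605 after EDA-A2. Most of that sum was Myh3, Acta1 and Myh8, which are among the 4 that fell. Of the 10 genes, 9 had a lower and 1 a higher mean after EDA-A2. Of 7 satellite cell and myoblast genes, Cd34 rose and 0 fell, Calcr was at 0, and the sum was 14700 to 15439 in control and 16138 to 16524 after EDA-A2. Most of that sum was Sdc4, with means of 9512 in control and 10847 after EDA-A2 (adjusted p = 0.138 by edgeR), while the other 4 genes tested had lower means, among them Pax7 with 1354 and 1201 (adjusted p = 0.286 by edgeR). For 8 genes of dividing cells edgeR and DESeq2 called 0, with 0 at an unadjusted p-value under 0.05 in edgeR, and the sums overlapped at 24369 to 28948 and 26664 to 27113. Pdgfrb alone of 6 mural cell genes passed, as lower, Myh11 had 5 counts in each library, and the sum was 1594 to 1608 in control and 1315 to 1428 after EDA-A2. Pdgfrb itself went from a mean of 969 to 709 normalized counts, and of the other 3 genes tested 2 had higher means, Abcc9 with 562 and 604 and Rgs5 with 23.4 and 31.4, and Cspg4 had a lower one, with 40.3 and 22.1. Sdc4, Pax7, Abcc9, Rgs5 and Cspg4 were named after their values were seen.

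Markers of other cells were low or incomplete. Of 8 endothelial genes 2 were tested, Emcn was at 0, and the sum was 285 to 306 in control and 267 to 272 after EDA-A2. Most of that sum was Egfl7, with means of 259 in control and 235 after EDA-A2. The other gene tested, Cdh5, had a higher mean after EDA-A2, with 17.8 and 23.1. Of 6 macrophage genes 2 were tested, Fcgr1 was at 0, and the sum was 77 to 86 and 103 to 126. Lum and Thy1 of 8 fibroblast genes were at 0, and the sum, mostly Col3a1, was 51609 to 53938 and 49261 to 50029. Of the 6 tested, 2 had higher means after EDA-A2, Pdgfra (268 and 298) and Dcn (87.5 and 122). The other 4 had lower means, among them Col3a1 (43031 and 41991) and Col1a1 (7183 and 5238), and for both of these the conditions overlapped. Cdh5, Pdgfra, Dcn and Col1a1 were named after their values were seen. In these 3 lists edgeR and DESeq2 called 0 genes, while edgeR gave 0 endothelial, 1 macrophage and 2 fibroblast genes at an unadjusted p-value under 0.05. The part of these differences in the values of Rbpj, Jag2 and the other Notch genes was not tested.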

How the data were processed

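Bulk RNA sequencing of primary myotubes was analysed, 2 control and 2 EDA-A2 libraries, grouped by their titles. Per the labels and the study's methods, the authors used FastQC 0.11.9, MultiQC 1.12, Trim Galore 0.6.5, STAR 2.7.3a on GRCm39 and HTSeq 0.11.1, and they deposited raw counts of read pairs per Ensembl gene, 1 table per library, unnormalized. The annotation release and strand option are not given in the sources used here. HTSeq's summary lines were left out. They held 6.68% to 7.40% of pairs outside genes, 0.946% to 0.986% ambiguous pairs and 4.56% to 4.76% not uniquely mapped, so near-identical copies lose reads. GENCODE on GRCm39 gave symbols for 52610 of 53647 genes, and lengths as the union of exons.

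Counts were tested in R 4.3.3 with edgeR 4.0.16 (TMM, filterByExpr at its defaults of 10 counts and 15 in total, glmQLFit and glmQLFTest, condition as the only term), with Benjamini-Hochberg adjustment over all 15173 genes tested and a threshold of 0.05. Standard errors were taken as log2 fold change over √F, and intervals are at 95%. Alternatives were DESeq2 1.42.0, other scalings and filters, a replicate block and each library left out, where a lone library was assumed to vary like the other condition. The fits were tested on simulated counts. Intervals and floors cover counting error or the spread of these libraries only. The 10 genes and the lists were chosen with earlier results of these data known. Named were all 10 members, pathway genes past the threshold, up to 3 further genes of each pathway list with the highest mean count, NFκB and EDA receptor genes, and extremes of marker lists. Marker genes that passed or were at 0 were added after their values were seen. One gene that this rule names is not reported here.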

Additional observations from a re-analysis of the deposited data

How the results depend on the processing

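Each alternative was run by refitting all genes. Rbpj was called higher under RLE factors, total counts, at least 10 counts in every library, DESeq2 and the replicate block, and 0 members were called higher without a filter. Members called lower numbered 0 under total counts, without a filter and with DESeq2, and 2 (Jag2 and Notch1, the latter with an adjusted p of 0.0216) with the replicate block. Of the other pathway genes, 1 was called higher without a filter and 1 with DESeq2, and 1 (Hes6) was called lower with the replicate block. Over all genes, 64 were higher and 22 lower without a filter, where 25545 genes were tested, 194 were lower and 485 higher under total counts, and 529 were lower and 537 higher with the replicate block, against 323 and 371 as reported. The numbers of members called higher and lower were 0 to 1 and 0 to 0 with 1 library left out, those of other pathway genes called higher 0 to 1, and those of all genes 0 to 238 higher and 0 to 170 lower. The cause of these shifts was not tested.

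The libraries share only a replicate number in the labels. Their deviations from the condition means correlated at 0.0983 between same-numbered libraries, which does not settle whether they are paired. The reported values are from the fit with condition as the only term. Scaling to total counts moved the median log2 fold change of all genes to 0.05. No member that passed the test changed direction under any alternative. Depth limits Heyl most, with 22 to 41 counts per library.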

Other observations

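Fringe glycosyltransferases, which add sugars that shift a Notch receptor's preference between Delta and Jagged ligands, had 3 members in the tables, of which Rfng is described above, and the other two were singled out after their values were seen. For Mfng there were 0 counts in both controls, against 7 and 11 after EDA-A2. Against a floor of 3 counts per library that is at least 2.89-fold higher, and the gene fell under the filter and was not tested. Lfng had 179 and 144 normalized counts in control and 212 and 203 after EDA-A2. The libraries did not overlap, but the log2 fold change of 0.36 (standard error 0.16) had an adjusted p of 0.266 by edgeR.

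The pseudogene Rbpj-ps3 differed by 0.79 on the log2 scale (SE 0.39; adjusted p = 0.360 by edgeR) over at most 38 counts. The log2 fold change of Parp9, whose exons overlap those of Dtx3l, was 1.27 with an SE of 0.13 (adjusted p = 4.33e-05 by edgeR).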
